A study of Mus musculus with 9 samples.

Results

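The genes described here are 10 transcripts known from platelets (Nrgn, Ppbp, Pf4, Gp9, Gp1bb, Gp5, Itga2b, Treml1, Tubb1 and Clec1b), read out in 9 libraries of sorted mouse monocytes. They are 10 of the 23238 gene symbols in the count tables, and they were chosen by their levels in these same libraries, as a group high in blood monocytes and low in brain monocytes. Their values in the comparisons with brain are therefore a description and carry no test. The question asked was whether Nrgn follows the other platelet genes from library to library, and whether any of the 10 differed between the 2 groups of blood monocytes, a contrast that did not choose them.

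The study used female wild-type C57BL/6N mice of 12 weeks. NMO mice, a model of neuromyelitis optica, received NMO-IgG (3 µl of 50 mg/ml, the patient autoantibody against the astrocyte water channel aquaporin 4) with 5% human complement into 1 striatum, and normal mice were untreated, so a sham injection is not among the groups. On day 1, CD45+CD11b+P2ry12-Ly6C+Ly6G- cells were sorted as monocytes from the blood of normal mice (Nor_Bl_mono), the blood of NMO mice (NMO_Bl_mono) and the brain of NMO mice (NMO_Br_mono), with 3 libraries a group, each stated to be an independent replicate from a pool of 5. Blood cells came from a density gradient of mononuclear cells, and brain cells from perfused, enzyme-digested tissue, so tissue and preparation cannot be told apart in any comparison of brain with blood. P2ry12, the ADP receptor used to leave out microglia, is also known from the platelet surface, so the sort selects against cells stained for it.

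Platelets are fragments of megakaryocytes that carry no nucleus but keep messenger RNA made by the parent cell. They adhere to damaged vessel walls through the glycoprotein Ib-IX-V complex, aggregate through the integrin formed by Itga2b and Itgb3, and release chemokines from alpha granules. Platelets also bind to monocytes in blood, and a monocyte carrying platelets stays positive for its own surface markers. Nrgn encodes neurogranin, a small calmodulin-binding protein best known from the postsynaptic side of forebrain neurons, and its transcript is also abundant in platelets.

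All 10 genes had a promoter window in the RefSeq table of GRCm38.p6, the mouse build mm10 that the processing labels name. The windows of 250 bases before the start that the table uses, which for Gp9 lies inside the listed span of the gene and for the other 9 at its end, were searched on both strands for AGATAA or TGATAA, motifs of the GATA factors of megakaryocytes, and for GGAAG, a core of ETS-factor motifs. A GATA motif was found in 2 of the 10 windows (Gp5 with 2 and Clec1b with 1) and in 16.6% of all 32841 windows of the same length. GGAAG was found in 9 of the 10 windows, all but that of Clec1b, and in 64.1% of all windows. The Nrgn window held 1 GGAAG, 130 bases before the start, and no GATA motif. The windows of 4 genes are printed because they span what the 10 genes showed, namely Nrgn itself, Itga2b with 4 copies of GGAAG (3.39% of all windows had 4 or more), Gp5 with both motifs, and Clec1b with the GATA motif alone. Each is given 5′ to 3′ on the strand of the gene, ending at the last base before the start, with motif matches on either strand in capitals.
Nrgn, chr9:37552746-37552995, minus strand: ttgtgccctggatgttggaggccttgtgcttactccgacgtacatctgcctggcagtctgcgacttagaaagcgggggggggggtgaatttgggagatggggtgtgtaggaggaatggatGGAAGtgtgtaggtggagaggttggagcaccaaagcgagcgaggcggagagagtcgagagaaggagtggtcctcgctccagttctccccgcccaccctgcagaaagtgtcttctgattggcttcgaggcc
Itga2b, chr11:102469884-102470133, minus strand: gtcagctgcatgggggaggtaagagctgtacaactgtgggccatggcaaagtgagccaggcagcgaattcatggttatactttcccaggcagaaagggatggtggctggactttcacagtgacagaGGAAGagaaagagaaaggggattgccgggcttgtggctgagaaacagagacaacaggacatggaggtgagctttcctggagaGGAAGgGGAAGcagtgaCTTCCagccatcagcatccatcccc
Gp5, chr16:30310782-30311031, minus strand: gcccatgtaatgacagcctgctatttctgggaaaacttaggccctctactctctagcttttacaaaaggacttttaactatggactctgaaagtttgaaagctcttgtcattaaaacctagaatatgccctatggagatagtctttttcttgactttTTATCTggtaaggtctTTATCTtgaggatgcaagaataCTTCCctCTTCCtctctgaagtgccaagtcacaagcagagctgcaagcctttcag
Clec1b, chr6:129397047-129397296, plus strand: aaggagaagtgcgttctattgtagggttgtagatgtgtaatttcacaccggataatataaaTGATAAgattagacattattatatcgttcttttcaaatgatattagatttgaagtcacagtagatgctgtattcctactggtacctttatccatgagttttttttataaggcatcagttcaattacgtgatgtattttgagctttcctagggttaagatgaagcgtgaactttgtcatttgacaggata

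The libraries held between 7584649 and 10419647 counts, of which the ribosomal RNA symbol Rn45s took from 28.4% to 43.6%. Levels are given as CPM, read counts scaled to TMM-normalized library size, and since the reads come from 3ʹ ends they were not divided by gene length. The floor was set at 3 counts in each library, equal to between 0.273 and 0.432 CPM. NMO_Bl_mono replicate 3 stood apart, with 4567 genes detected against 7495 to 11556 in the other blood libraries. It had counts at or under the floor for 22.3% of 2522 genes that reached 50 CPM in replicates 1 and 2, and results that rest on it are marked. The 13 monocyte markers all had counts in each of the 3 groups, and their summed level ranged from 3914 to 8566 CPM over the 9 libraries.

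Nrgn had the highest mean CPM of the 10 in both blood groups. It was counted at 1414, 166 and 264 CPM in Nor_Bl_mono, at 1022, 278 and 276 CPM in NMO_Bl_mono, and at 0, 0.0951 and 0 CPM in NMO_Br_mono, for replicates 1, 2 and 3 in turn. Replicate 1 was the highest library of both blood groups, the groups overlapped in blood, and each brain library lay below each blood library. The raw counts ran from 1572 to 9829 in blood, and a single read was counted over all 3 brain libraries. Its mean was 615 ± 694 CPM (SD, n = 3) in Nor_Bl_mono and 525 ± 430 CPM (n = 3) in NMO_Bl_mono, so the level in brain was at least 1998-fold and at least 1707-fold lower, with the brain group set at 3 counts per library. Without replicate 1 of the blood group these bounds were 699-fold and 899.9-fold. In bulk samples such as these, fewer cells of a type and less RNA per cell cannot be told apart. Among the 10107 genes tested, Nrgn ranked between 34 and 847 by CPM in the blood libraries. The gene lies on chromosome 9 (37544493 to 37552745, minus strand), and no other RefSeq gene overlaps it.

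**Figure D1:**
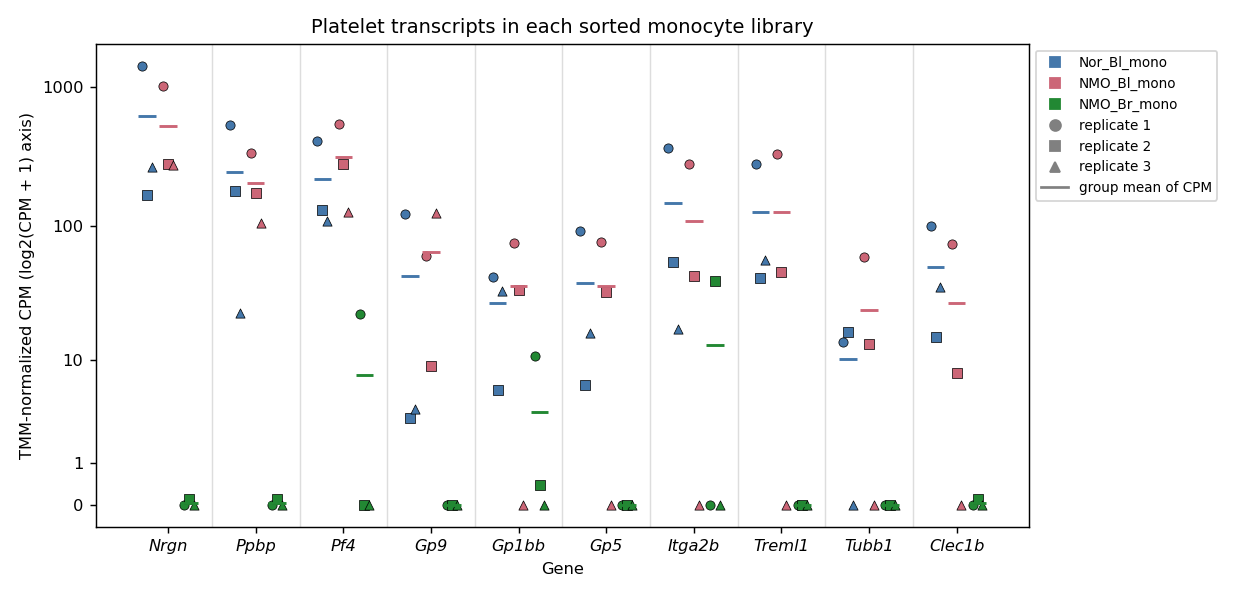
TMM-normalized CPM of the 10 platelet transcripts (x axis) in each library, on a log2(CPM + 1) axis, with colours for the groups, symbols for the replicates and a bar at each group's mean CPM. The brain points of 7 genes lie at or next to 0, and in blood the circles of replicate 1 are the highest points of most genes.

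The alpha-granule chemokines Ppbp (pro-platelet basic protein) and Pf4 (platelet factor 4) are neighbours on chromosome 5, at 90768518 to 90770063 and 90772435 to 90773383 on the plus strand. Ppbp was at 531, 177 and 22.8 CPM in Nor_Bl_mono, 335, 174 and 105 CPM in NMO_Bl_mono, and 0, 0.0951 and 0 CPM in NMO_Br_mono. Pf4 was at 408, 131 and 108 CPM in Nor_Bl_mono, 542, 277 and 126 CPM in NMO_Bl_mono, and 22.6, 0 and 0 CPM in NMO_Br_mono. Both overlapped between the blood groups, and all brain libraries were below all blood libraries. Ppbp in brain was at least 791-fold below Nor_Bl_mono and at least 665-fold below NMO_Bl_mono. The mean of Pf4 in brain, 7.54 ± 13.1 CPM, was 28.6-fold below Nor_Bl_mono and 41.8-fold below NMO_Bl_mono, and it came from the 200 counts of replicate 1 alone.

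Gp9, Gp1bb and Gp5 encode parts of the glycoprotein Ib-IX-V complex, the platelet receptor for von Willebrand factor. Gp9 was at 121, 3.17 and 3.88 CPM in Nor_Bl_mono, 60.2, 8.92 and 123 CPM in NMO_Bl_mono, and 0 in each brain library. It was the one member whose highest blood library was NMO_Bl_mono replicate 3, by 123 against 121 CPM. Gp5 was at 92.1, 6.24 and 16.04 CPM in Nor_Bl_mono, 75.5, 32.9 and 0 CPM in NMO_Bl_mono, and 0 in each brain library. Gp1bb was at 42.3, 5.71 and 33.1 CPM in Nor_Bl_mono, 74.4, 34.1 and 0 CPM in NMO_Bl_mono, and 10.6, 0.380 and 0 CPM in NMO_Br_mono. Gp9 in brain was at least 139-fold below Nor_Bl_mono and at least 208-fold below NMO_Bl_mono. For Gp5 the level was at least 124-fold and at least 117-fold lower, although the brain and NMO_Bl_mono groups met at 0 in NMO_Bl_mono replicate 3. Gp1bb overlapped between brain and both blood groups.

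The Gp1bb counts are shared in part with another gene. Gp1bb (chromosome 16, 18620319 to 18622403) overlaps the RefSeq gene Septin5, listed in the count tables as Sept5 (18621811 to 18629938), by 593 bases, and the sources used here do not state that strand was used in counting. Gp1bb lies on the minus strand, and no strand was available here for Septin5. Whether counting by strand would separate the 2 genes was not tested. Gp1bb had 294, 54 and 324 counts in Nor_Bl_mono, 531, 313 and 0 counts in NMO_Bl_mono, and 94, 4 and 0 counts in NMO_Br_mono. Sept5 had 66, 0 and 324 counts, 65, 0 and 0, and 94, 4 and 0 in the same order. The 2 genes thus had the same number of counts in Nor_Bl_mono replicate 3 and in all 3 brain libraries, both were at 0 in NMO_Bl_mono replicate 3, and every Gp1bb count in brain was matched by a Sept5 count. Which gene these reads came from was not tested. In the 2 Nor_Bl_mono and 2 NMO_Bl_mono libraries where they differed, Gp1bb exceeded Sept5 by between 54 and 466 counts.

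**Figure D2:**
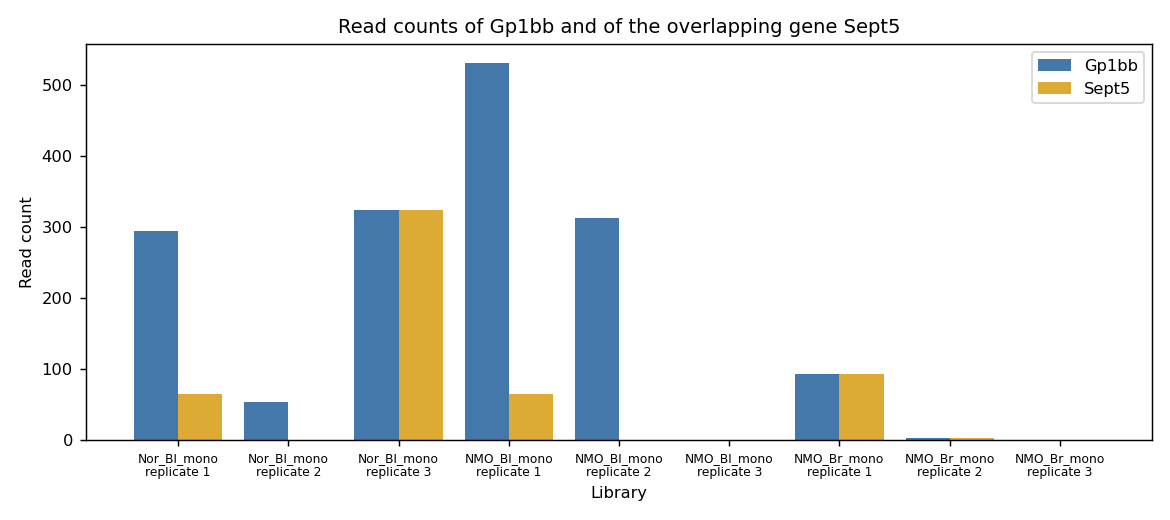
Read counts (y axis, linear from 0) of Gp1bb and the overlapping gene Sept5 in each of the 9 libraries (x axis). The bars are of equal height in Nor_Bl_mono replicate 3 (324 and 324) and in NMO_Br_mono replicate 1 (94 and 94), while Gp1bb is far higher in replicate 1 of both blood groups.

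Itga2b, the alpha chain of the platelet fibrinogen receptor, was at 365, 54.5 and 17.3 CPM in Nor_Bl_mono, 280, 42.9 and 0 CPM in NMO_Bl_mono, and 0, 39.2 and 0 CPM in NMO_Br_mono. Its brain mean of 13.1 ± 22.6 CPM (n = 3) came from the 412 counts of replicate 2 alone, a library in which none of the other 9 genes exceeded 4 counts. The ratio of means was 11.2 against Nor_Bl_mono and 8.25 against NMO_Bl_mono, but 2.75 and 1.64 without replicate 1 of the blood group, and brain overlapped both. Treml1, a receptor kept in alpha granules until the platelet is activated, was at 278, 41.6 and 55.8 CPM in Nor_Bl_mono, 332, 45.9 and 0 CPM in NMO_Bl_mono, and 0 in each brain library. The Treml1 level in brain was at least 406-fold below Nor_Bl_mono and at least 409-fold below NMO_Bl_mono. Without replicate 1 of the blood group these bounds were 158-fold and 74.6-fold. The brain and NMO_Bl_mono groups met at 0 in NMO_Bl_mono replicate 3.

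Clec1b, the platelet receptor for podoplanin, was at 99.4, 14.9 and 35.4 CPM in Nor_Bl_mono, 73.8, 7.84 and 0 CPM in NMO_Bl_mono, and 0, 0.0951 and 0 CPM in NMO_Br_mono. It lies within the span of Clec12b on the opposite strand, and Clec12b had 0 counts in all 9 libraries. Tubb1, the beta tubulin of the platelet's marginal band, was the lowest in blood, at 13.7, 16.5 and 0 CPM in Nor_Bl_mono, 59.2, 13.2 and 0 CPM in NMO_Bl_mono, and 0 in each brain library. The brain level was at least 162-fold (Clec1b) and at least 32.7-fold (Tubb1) below Nor_Bl_mono, and at least 88.5-fold and at least 78.4-fold below NMO_Bl_mono. Both overlapped with brain through NMO_Bl_mono replicate 3, and Tubb1 also through Nor_Bl_mono replicate 3.

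Counted over the members, 7 of 10 (Nrgn, Ppbp, Gp9, Gp5, Treml1, Tubb1 and Clec1b) were at or under 3 counts in all brain libraries, a state shared by 7.29% of the 10107 genes tested. Every brain library was below every Nor_Bl_mono library for 7 members (background 9.37%), below every NMO_Bl_mono library for 4 (6.05%), and below all 6 blood libraries for the same 4, Nrgn, Ppbp, Pf4 and Gp9 (3.13%). Since this contrast chose the members, nothing is read from these counts against their backgrounds. The 2 comparisons with brain also share the 3 brain libraries. All 10 members passed the expression filter, through their counts in blood. The sizes of the folds rested in large part on replicate 1 of the blood groups. Without it, an alternative chosen after seeing the data, the bounds of the 7 genes at the floor fell to between 11.5-fold (Gp9) and 699-fold (Nrgn) against Nor_Bl_mono and ran from 12.7-fold (Clec1b) to 899.9-fold (Nrgn) against NMO_Bl_mono, and the ratios of Pf4 were 15.8 and 26.7.

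Between the blood groups, the fold changes of the members were smaller than their standard errors. By edgeR's quasi-likelihood test with Benjamini-Hochberg adjustment, 0 of 10 members and 0 of all genes tested (background 0%) had an adjusted p under 0.05 in NMO_Bl_mono against Nor_Bl_mono. The log2 fold change of Nrgn was -0.23 (SE 0.78, adjusted p = 1) and that of Ppbp was -0.25 (SE 0.93). Pf4 (0.55, SE 1.49), Gp9 (0.58, SE 1.77), Gp1bb (0.42, SE 2.43), Treml1 (0.0096, SE 1.68) and Tubb1 (1.26, SE 3.09) had values above 0. Gp5 (-0.08, SE 2.25), Itga2b (-0.44, SE 2.16) and Clec1b (-0.87, SE 2.14) had values below 0. With standard errors of this size, a difference of several fold in either direction was not detectable. At an unadjusted p under 0.05 the test called 0 members and 72 genes (0.712%), and DESeq2 called 0 members and also 72 genes at its adjusted p (0.712%). The blood groups did not overlap for 0 of 10 members, against 6.8% of all genes. For each of the 10 members the sign of the fitted value turned when 1 of the 6 blood libraries was left out.

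The summed level of the members spread more between replicates than it differed between the blood groups. For the 9 members other than Nrgn it was 1950, 450 and 292 CPM in Nor_Bl_mono, 1833, 636 and 354 CPM in NMO_Bl_mono, and 33.2, 39.8 and 0 CPM in NMO_Br_mono. The group means were 897 ± 915, 941 ± 785 and 24.3 ± 21.3 CPM (SD, n = 3 each). Replicate 1 decided both blood means, which were 371 CPM in Nor_Bl_mono and 495 CPM in NMO_Bl_mono without it. In brain, at most 2 of these 9 genes were above the floor in a library, Pf4 and Gp1bb in replicate 1 and Itga2b and Gp1bb in replicate 2. Taking the number of Sept5 counts off Gp1bb, an alternative chosen after seeing the data, left means of 883, 938 and 20.7 CPM.

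The 3 libraries with the highest summed level (replicate 1 of Nor_Bl_mono, then replicates 1 and 2 of NMO_Bl_mono) were also the 3 highest for Nrgn, in the same order. Nor_Bl_mono replicate 2 came next in summed level but was the lowest blood library for Nrgn, and Nrgn was at the floor in brain. The place of NMO_Bl_mono replicate 2 in the Nrgn order was close to a tie with NMO_Bl_mono replicate 3 (277.6 against 276.2 CPM). Replicate 3 had more raw counts of Nrgn (3038 against 2551). The rho given below rests in part on that order. Over the 6 blood libraries Nrgn equalled between 36.9% and 90.4% of the summed CPM of the other 9, with the lowest share in Nor_Bl_mono replicate 2 and the highest in Nor_Bl_mono replicate 3. As a description over these 6 libraries, Pearson's r of Nrgn with the summed level on log2(CPM + 1) was 0.91 and Spearman's rho was 0.83, and Nrgn ranked 65 among the 7202 genes ordered by that r. The summed level rests on the same libraries and depth as Nrgn, and 2 libraries hold most of its range.

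**Figure D3:**
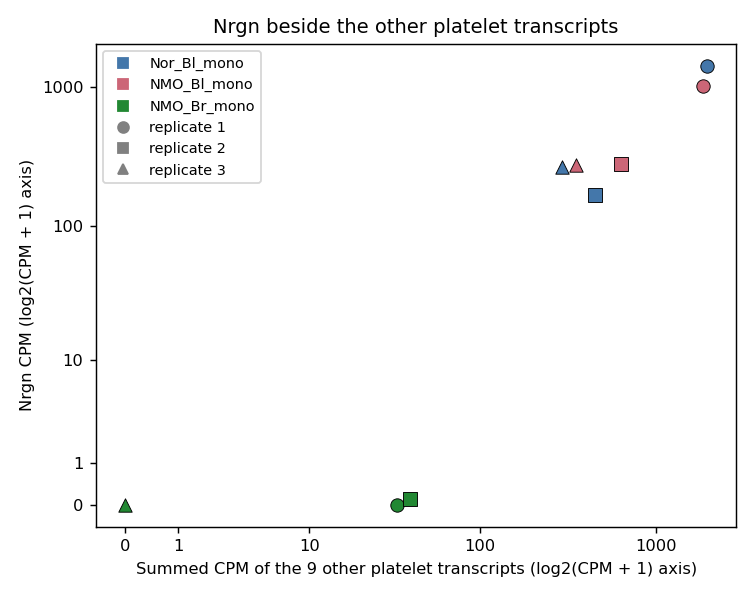
CPM of Nrgn (y axis) against the summed CPM of the 9 other platelet transcripts (x axis) in each library, both on log2(CPM + 1) axes. The 2 circles at the upper right are replicate 1 of Nor_Bl_mono and NMO_Bl_mono, the other 4 blood libraries lie between 166 and 278 CPM of Nrgn, and the brain libraries lie along the bottom, at 1 count of Nrgn or none.

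Gene by gene, the relation did not pass a test. Over the 6 blood libraries Pearson's r of Nrgn was 0.85 with Pf4, 0.71 with Gp9, 0.70 with Gp5, 0.66 with Ppbp, 0.65 with Itga2b, 0.64 with Clec1b, 0.61 with Treml1, 0.56 with Gp1bb and 0.47 with Tubb1. Spearman's rho ran from 0.29 (Tubb1) to 0.83 (Gp5). For Pf4 the two-sided exact permutation p was 0.0403 for r and 0.103 for rho, and after Benjamini-Hochberg adjustment over the 9 pairs 0.222 and 0.262. The adjusted permutation p of r was 0.222 for 8 of the pairs and 0.281 for Tubb1, those of rho ran from 0.262 to 0.578, and the smallest exact p that 6 libraries allow is 0.00139. Without the 2 libraries farthest from the median of Pf4 (replicate 1 of both blood groups) the r with Pf4 was 0.27, so this relation rests on those 2 libraries. For the other 8 genes r without the 2 farthest libraries ran from 0.38 (Tubb1) to 0.98 (Treml1). For each of these 8, replicate 1 of at least 1 blood group stayed in. Their values therefore cannot show whether r rests on the replicate 1 libraries.

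The members did not all follow each other more closely than Nrgn followed them. The 36 pairs among the other 9 had a median r of 0.68 over the blood libraries and ranged from -0.14 (Gp9 with Gp1bb) to 0.97, while the 9 pairs with Nrgn had a median of 0.65. Gp9 stood apart, since NMO_Bl_mono replicate 3 held 123 CPM of it and 0 CPM of Gp1bb, Gp5, Itga2b, Treml1, Tubb1 and Clec1b. Nrgn, Ppbp and Pf4 were above the floor in that library too. Without it, over the 5 blood libraries left and as a description, r of Nrgn was 0.99 with Gp9, 0.97 with Treml1, 0.94 with Gp5 and 0.43 with Tubb1. The values with the remaining members are not given here. Among these 5 libraries Gp9 was at 121 and 60.2 CPM in replicate 1 of Nor_Bl_mono and NMO_Bl_mono, and at most 8.92 CPM elsewhere. The r with Gp9 thus rests on the replicate 1 libraries. For comparison, the median r of Nrgn with all 7210 genes ranked was 0.19 over the 6 blood libraries, and 11.3% of them exceeded 0.5. Over all 9 libraries r ran from 0.62 (Itga2b) to 0.97 (Ppbp), values that the gap between blood and brain enters and that are given with no test.

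Of all genes with a mean of at least 10 CPM in blood, those most like Nrgn over the 9 libraries, by r on log2(CPM + 1), were Adamts14 (0.99), Klra21 (0.99), Klra8 (0.98), Sytl3 (0.98), Strbp (0.97), Rab12 (0.97), Gimap4 (0.97), Ppbp (0.97), Il2rb (0.97) and Qrfp (0.96). Ppbp, at rank 8 of 7210, was the one platelet member among them. Klra21, Klra8 and Il2rb are receptor genes known from NK cells. Over the 6 blood libraries alone the genes most like Nrgn included Dhdds, Hba-a1, Rpl27a, Pard3b, Dapk2, Cald1, Tmem57, Tsc22d1 and Arhgap18, with r from 0.94 to 0.97, and the first member in that order was Pf4 at rank 47. The genes most like the summed level of the other 9 members over the blood libraries were Actn1, Fosb, Gnaz, Dhdds, Ctla2a, Hdc, Pard3b, Nrm, Jun and Arpc4, with r from 0.97 to 0.99. These rankings describe 9 and 6 libraries in which many genes move together, and no function is read from them.

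A wider list of 75 platelet and megakaryocyte genes outside the 10 was examined next, of which 72 had an entry, 67 had any count and 64 were tested. Its 12 most abundant genes in blood were Srgn, Myh9, Plek, Tln1, Flna, F13a1, Lyn, Ctla2a, Thbs1, Mef2c, Bin2 and Fermt3, and of these all but Ctla2a were marked as also expressed by monocytes. In NMO_Bl_mono against Nor_Bl_mono, 0 of the 64 passed an adjusted p under 0.05. The median log2 fold change was -0.19 over the list and -0.16 over all genes tested. P2ry1, a receptor for ADP, was the 1 gene at an unadjusted p under 0.05 and the 1 called by DESeq2. It was named after its values were seen, at 0.288, 0 and 0 CPM in Nor_Bl_mono and 1.96, 34.6 and 145 CPM in NMO_Bl_mono, with an adjusted p of 1 in edgeR's test.

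In brain the wider list had lower medians among the genes not marked here as monocyte genes. In NMO_Br_mono against NMO_Bl_mono the median log2 fold change was -3.36 over the 33 genes tested that were not marked as also expressed by monocytes and -0.24 over the 31 that were, beside 0.05 over all genes. In NMO_Br_mono against Nor_Bl_mono the medians were -3.16 and -0.49, beside -0.12. These fitted medians include genes at 0 in brain that passed the filter through blood, and the summed level differed less. The 41 listed genes not marked as monocyte genes summed to 2121, 791 and 436 CPM in Nor_Bl_mono, 1802, 1026 and 519 CPM in NMO_Bl_mono, and 517, 214 and 857 CPM in NMO_Br_mono, so brain overlapped both blood groups (means of 1116, 1116 and 529 CPM). That overlap rested on Sparc and Timp3, named after their values were seen. Sparc was at 109, 75.9 and 314 CPM in NMO_Br_mono and at most 12.2 CPM in a blood library. Timp3 was at 56.1, 13.3 and 173 CPM in NMO_Br_mono and at most 1.31 CPM in a blood library. With both left out, each brain sum was below each blood sum. By edgeR's test 0 of 64 passed an adjusted p under 0.05 in either comparison, where 0.247% of all genes did (25 genes in each, 23 and 22 of them lower in brain). At an unadjusted p under 0.05, 6 of 64 were lower in both comparisons (Cd226, Ctla2a, Gp1ba, Itga2, Myl9 and Zfpm1), beside 3.84% of all genes against NMO_Bl_mono and 4.07% against Nor_Bl_mono. The list was marked for expression by monocytes alone, not by other blood cells. The NK cell sum was also below all blood libraries in 3 of 3 brain libraries, and the part of NK cells in these 6 genes was not tested. Higher at that threshold were 5 of 64 against NMO_Bl_mono (Pdgfa, Sparc, Srgn, Thbs1 and Timp3, background 1.48%) and 4 of 64 against Nor_Bl_mono (the same without Pdgfa, background 1.75%). Sparc is also on the microglia list used here, and the microglia sum was above all blood libraries in 3 of 3 brain libraries and the endothelial sum in 2 of 3. The microglia sum includes Sparc itself, with 109, 75.9 and 314 CPM of 638, 1386 and 955 CPM in NMO_Br_mono. Which cells the genes higher in brain came from was not tested. DESeq2's adjusted p called 10 of 64 against NMO_Bl_mono, 7 of them lower, and 9 of 64 against Nor_Bl_mono, 8 of them lower. Counting either direction, it called 3.3% and 3.63% of all genes in these comparisons.

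By role, the 9 tested adhesion receptors and integrins had a median log2 fold change of 0.32 against NMO_Bl_mono, with 5 values above 0 and 4 below, and of -0.27 against Nor_Bl_mono, with 4 above and 5 below. Gp1ba, the partner of Gp1bb and Gp9 in the von Willebrand factor receptor, was at 28.8, 20.8 and 9.502 CPM in Nor_Bl_mono, 14.8, 12.3 and 0 CPM in NMO_Bl_mono, and 0 in each brain library. Itgb3, the partner of Itga2b, was at 237, 83.6 and 20.7 CPM, 235, 89.9 and 0 CPM, and 0, 0 and 25.8 CPM in the same order, so its brain counts and those of Itga2b came from different libraries. Both genes were named as partners of members, and both were low in NMO_Bl_mono replicate 3. Against NMO_Bl_mono and Nor_Bl_mono in turn, the median was -1.6 and -1.12 for 15 agonist receptors and signalling genes, -0.58 and -1.28 for 15 enzymes and cytoskeleton genes, -0.81 and -1.2 for 11 transcription factors of megakaryocytes and 0.94 and 0.82 for 14 granule and secreted proteins.

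The granule group was led by genes that monocytes also express. Srgn, the proteoglycan of secretory granules, was at 1257 ± 150 CPM in Nor_Bl_mono, 1106 ± 269 CPM in NMO_Bl_mono and 2050 ± 466 CPM in NMO_Br_mono (SD, n = 3), with an adjusted p of 0.587 against NMO_Bl_mono. Thbs1, the matrix protein thrombospondin 1, was at 331, 255 and 531 CPM in Nor_Bl_mono, 365, 378 and 147 CPM in NMO_Bl_mono and 1283, 879 and 1065 CPM in NMO_Br_mono. Its log2 fold change was 1.86 (SE 0.44, adjusted p = 0.183) against NMO_Bl_mono, and all brain libraries lay above all blood libraries. The same held for Srgn, and the share of all genes in that state is not given here. Of the 12 most abundant, Ctla2a and Myh9 had all brain libraries below all blood libraries, as did 3.13% of all genes tested. Myh9, the heavy chain of nonmuscle myosin, ran from 844 to 1141 CPM in blood and from 561 to 729 CPM in brain. Its adjusted p by edgeR's test was 0.802 against NMO_Bl_mono. Ctla2a, a cysteine protease inhibitor, was at 760, 236 and 111 CPM in Nor_Bl_mono, 556, 251 and 139 CPM in NMO_Bl_mono, and 21.8, 53.0 and 16.1 CPM in NMO_Br_mono. Its adjusted p by the same test was 0.19 against NMO_Bl_mono.

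Neurogranin is also a neuronal protein, so neuron genes were set beside it. In blood, where Nrgn was at 166 CPM or more, the summed level of 18 neuron genes was between 34.0 and 65.6 CPM, and Camk2b, a kinase gene not limited to neurons, gave most of it in all but NMO_Bl_mono replicate 3. Among the defining neuron markers, Camk2a, Gap43 and Map2 were at 0 in all 6 blood libraries, Snap25 reached 5.33 CPM, Rbfox3 had 9.64 CPM in Nor_Bl_mono replicate 1 and 0 in the others, and Syt1 had 45.7 CPM in NMO_Bl_mono replicate 3 and 0 in the other 5. In brain the same sum was 118 CPM in replicate 1 and 0 in replicates 2 and 3, where Nrgn had at most 1 count.

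Transcripts of other cells differed between blood and brain along with the platelet genes, and their part in the result was not tested. The erythroid list (14 of 15 genes with a count, led by Hba-a1 and Hbb-bs) summed to 1454 to 5658 CPM in Nor_Bl_mono, 2310 to 7377 CPM in NMO_Bl_mono and 4.66 to 528 CPM in NMO_Br_mono. The NK cell list (9 of 9, led by Gzma and Nkg7) summed to 2436 to 2932 CPM, 2661 to 3469 CPM and 48.5 to 394 CPM in the same order. In the erythroid list, Hbb-bs and Hbb-b1 had nearly equal levels (981 and 981 CPM in Nor_Bl_mono replicate 1). So did Hbb-bt and Hbb-b2 (268 and 268 CPM there), and the erythroid sum may therefore count the same reads more than once. The B and T cell list (9 of 10) summed to at most 106 CPM in any library. In the other direction, neutrophil markers (9 of 9, led by S100a8 and S100a9) summed to 83.1 to 298 CPM in blood and 442 to 1751 CPM in brain. The markers of this list did not move together. Retnlg, named because it went against the sum, was at 125, 84.8 and 37.8 CPM in Nor_Bl_mono and at 0 in each brain library. Mmp8 had a log2 fold change of -0.05 against NMO_Bl_mono. Microglia markers (14 of 14 genes with a count) summed to at most 118 CPM in blood and 638 to 1386 CPM in brain, endothelial markers (10 of 10) to at most 152 CPM and 131 to 1545 CPM, and astrocyte markers (5 of 7) to at most 14.4 CPM and 39.6 CPM.

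Within blood, the erythroid sum and the platelet genes were both highest in replicate 1 of the 2 groups, and among the other 4 libraries their orders differed, with the erythroid sum highest in NMO_Bl_mono replicate 3 and the platelet sum in NMO_Bl_mono replicate 2. Over the 6 blood libraries, and as descriptions, the log2 summed level of the 9 members had an r of 0.79 with the erythroid sum, 0.77 with the number of genes detected, 0.91 with the share of Rn45s and -0.46 with the NK cell sum. Replicate 1 of Nor_Bl_mono and of NMO_Bl_mono had the highest share of Rn45s (43.6% and 42.2%), the most genes detected (10669 and 11556) and the most platelet counts. What part these library properties had in the platelet levels was not tested.

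**Figure D4:**
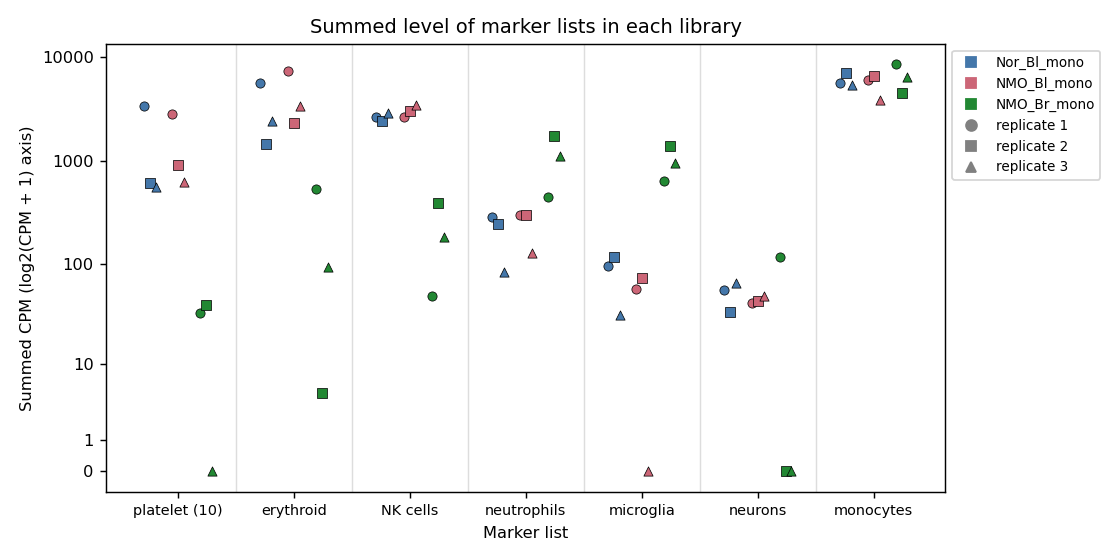
Summed CPM of marker lists (x axis) in each library, on a log2(CPM + 1) axis, with colours for the groups and symbols for the replicates. The platelet, erythroid and NK cell sums of the brain libraries lie below those of all blood libraries, the neutrophil and microglia sums lie above them, and the monocyte sums overlap.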

How the data were processed

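RNA of CD45+CD11b+P2ry12-Ly6C+Ly6G- cells was sequenced by QuantSeq 3ʹ libraries (single-end reads). Per the paper's methods and the labels, the authors aligned the reads with Bowtie2 to mm10, used bedtools coverage to count reads by gene, multiple alignments included, and deposited the raw read counts used here, before their own normalization. Because reads aligning to several genes were counted, overlapping and near-identical genes may share counts. Tool versions and the use of strand are not given in the sources used here.

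Of 23282 entries, the one with the most counts was kept for each of 35 repeated symbols, which left 23238 symbols. The 10107 that passed filterByExpr were tested with edgeR 4.0.16 (R 4.3.3; glmQLFit and glmQLFTest, TMM factors, all 9 libraries in a single fit, Benjamini-Hochberg adjustment over all genes tested), and p-values measure the spread between pools. CPM used TMM-adjusted library sizes. Correlations used log2(CPM + 1) and exact permutation (SciPy 1.17.1). The floor of 3 counts covers counting error only. The members and the gene lists were chosen with earlier results of these data known. Besides the members, the text names the 12 most abundant genes of the wider platelet list in blood, the 10 genes most like Nrgn or the summed level, and the 2 highest of a marker list, with exceptions marked and a few genes of these rankings not reported here. The alternatives were RLE factors, library size alone, no filter, a fit of 2 groups alone, a block for the replicate number, each library left out, DESeq2 1.42.0, other pseudocounts, and CPM without a logarithm. The scripts were checked on simulated counts with a smaller spread than these libraries have, so this check says nothing of how many real differences were missed. Promoter windows and gene positions came from RefSeq (GRCm38.p6).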

Additional observations from a re-analysis of the deposited data

How the results depend on the processing

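With 3 libraries a group and a common dispersion of 2.87, only very large differences could pass. Genes called in NMO_Bl_mono against Nor_Bl_mono numbered 0 in edgeR's fit, 2 with no filter and 72 by DESeq2, and other platelet genes 0, 0 and 1. In NMO_Br_mono against NMO_Bl_mono, 25 genes were called, 110 with no filter, 7 with only the 2 groups and 334 by DESeq2, and 3 (no filter) or 10 (DESeq2) other platelet genes. In NMO_Br_mono against Nor_Bl_mono, 25 genes were called, 115 with no filter and 367 by DESeq2, and 2 or 9 other platelet genes. Leaving out 1 library gave between 0 and 0, between 15 and 36 (36 without NMO_Bl_mono replicate 3) and between 11 and 27 genes (11 without Nor_Bl_mono replicate 3) in the 3 comparisons in turn, and 0 other platelet genes throughout. The cause of these shifts was not tested.

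Over all genes tested, the correlation of same-numbered deviations from the group means ran from -0.01 to 0.12. Replicate 1 had the highest share of Rn45s in each group (43.6% in Nor_Bl_mono, 42.2% in NMO_Bl_mono and 39.3% in NMO_Br_mono). The summed level of the 9 members was also highest in replicate 1 and lowest in replicate 3 of both blood groups. Whether same-numbered libraries share a batch or mice was not tested. With a replicate block, 0, 22 and 22 genes were called. The blocked log2 fold change of NMO_Bl_mono against Nor_Bl_mono changed sign for Nrgn (0.04), Ppbp (0.43), Gp1bb (-1.73) and Treml1 (-1.2). That of Treml1 also changed sign with RLE factors (-0.03), library size alone (-0.0012) and DESeq2 (-0.03). Leaving out 1 library, the same fold change ran from -1.15 to 1.29 for Nrgn, -0.81 to 1.04 for Ppbp, -0.1 to 1.4 for Pf4, -0.3 to 4.17 for Gp9, -0.67 to 1.01 for Gp1bb, -1.21 to 1.7 for Gp5, -2.76 to 1.59 for Itga2b, -2.44 to 1.37 for Treml1, -0.61 to 1.85 for Tubb1 and -3.67 to 0.12 for Clec1b. The summed level of the 9 members ran from 371 to 1200 CPM in Nor_Bl_mono, 495 to 1234 CPM in NMO_Bl_mono and 16.6 to 36.5 CPM in NMO_Br_mono when 1 library was left out. The number of Nrgn pairs past an adjusted p under 0.05 was 0 under each of the 10 alternatives, and all 90 alternative r values stayed above 0.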
